A study of Mus musculus with 2 samples.

Results

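The genes described here are 10 products of fibroblasts and of the extracellular matrix other than collagen: the proteoglycan genes Dcn, Lum and Bgn, the matrix glycoprotein genes Fn1, Sparc and Mgp, the elastin gene Eln, the cytoskeletal genes Gsn and Vim, and the growth factor receptor gene Pdgfra. They were chosen by symbol from the 43346 genes of the deposited gene tables, and all 10 were found by their identifier. They were measured in the pancreas of a single C57BL/6J mouse (n = 1), an adult female aged 10 weeks. Its polyadenylated RNA was sequenced as 2 technical replicate libraries of 1 biological sample, so no condition, genotype or treatment was compared and the spread between libraries carries no variation between animals. The labels give both libraries the same extraction kit and fragment size range and date only replicate 2, to 2015; whether every library step was otherwise the same is not stated. Expected counts, which are estimates of the reads that belong to a gene, summed to 9441559 in replicate 1 and 9797569 in replicate 2. Levels are given in TPM, a unit that corrects counts for transcript length and scales every library to the same total.

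Fibroblasts of the pancreas lie in the thin connective tissue between lobules and around ducts, vessels and islets, among a much larger mass of acinar cells. Small leucine-rich proteoglycans bind collagen fibrils and set their spacing, fibronectin links cells to the matrix through integrins, and elastin is the core protein of elastic fibres. Vimentin and gelsolin act inside the cell, on intermediate filaments and on actin, and are made by many cell types besides fibroblasts. Gelsolin also has a secreted form.

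The members differ widely in base composition, and their ratio between the libraries went with it in part. For this reason the middle 150 bases of the coding sequence of 4 members are shown, taken from GENCODE M21 transcripts on GRCm38, 5′ to 3′, with G and C in capitals. The Lum window (coding bases 433 to 582) holds 44.7% G and C, that of Dcn (bases 457 to 606) 48.0%, that of Bgn (bases 478 to 627) 56.0% and that of Eln (bases 1216 to 1365) 59.3%.
Lum: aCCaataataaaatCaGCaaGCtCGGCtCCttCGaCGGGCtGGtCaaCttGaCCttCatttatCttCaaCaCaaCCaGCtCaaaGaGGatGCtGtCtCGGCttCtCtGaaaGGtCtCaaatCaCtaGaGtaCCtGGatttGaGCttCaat
Dcn: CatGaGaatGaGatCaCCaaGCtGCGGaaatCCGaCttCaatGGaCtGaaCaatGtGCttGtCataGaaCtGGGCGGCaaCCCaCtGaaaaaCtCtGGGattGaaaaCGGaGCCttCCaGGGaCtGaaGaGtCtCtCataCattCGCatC
Bgn: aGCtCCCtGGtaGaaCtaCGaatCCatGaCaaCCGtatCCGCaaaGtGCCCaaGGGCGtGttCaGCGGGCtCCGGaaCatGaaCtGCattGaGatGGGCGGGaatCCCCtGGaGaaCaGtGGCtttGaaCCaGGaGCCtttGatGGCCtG
Eln: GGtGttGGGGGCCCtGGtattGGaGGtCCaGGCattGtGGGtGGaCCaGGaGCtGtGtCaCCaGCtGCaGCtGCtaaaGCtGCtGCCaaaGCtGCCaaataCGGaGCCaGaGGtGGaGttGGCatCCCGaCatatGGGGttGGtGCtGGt
Over the whole coding sequence the content of G and C ran from 44.5% in Lum and 47.7% in Dcn, through 53.3% in Bgn, to 58.1% in Gsn and 62.6% in Eln.

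The other sequences that matter are the cassette exons of Fn1, because the deposited transcript estimates divide the gene by them. EDB and EDA each encode a whole fibronectin type III repeat and can be skipped without a change of reading frame. They are shown from GENCODE M21 transcript sequence on GRCm38 with the exon in capitals and 12 bases of each neighbouring exon in lower case. Fn1 lies on the minus strand, where EDB is exon 25 at chr1:71613763-71614035, 273 bases long, and EDA is exon 33 at chr1:71603660-71603929, 270 bases long, both numbered in the transcript that holds both.
EDB: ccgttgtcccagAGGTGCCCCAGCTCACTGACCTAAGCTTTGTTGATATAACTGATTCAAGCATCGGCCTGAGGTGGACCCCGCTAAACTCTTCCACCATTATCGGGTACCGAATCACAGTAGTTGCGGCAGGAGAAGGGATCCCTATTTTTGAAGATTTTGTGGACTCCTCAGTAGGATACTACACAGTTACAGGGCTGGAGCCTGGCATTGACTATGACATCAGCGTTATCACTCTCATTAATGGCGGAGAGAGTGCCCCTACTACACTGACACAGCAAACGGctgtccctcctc
EDA: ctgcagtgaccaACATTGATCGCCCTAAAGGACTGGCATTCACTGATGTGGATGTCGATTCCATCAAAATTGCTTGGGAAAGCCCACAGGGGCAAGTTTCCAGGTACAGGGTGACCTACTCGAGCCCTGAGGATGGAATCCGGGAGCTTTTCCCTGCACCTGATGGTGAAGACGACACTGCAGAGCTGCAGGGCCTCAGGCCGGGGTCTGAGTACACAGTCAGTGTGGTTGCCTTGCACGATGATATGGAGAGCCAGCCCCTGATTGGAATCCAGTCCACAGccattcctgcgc

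Together the 10 members held 1093 TPM in replicate 1 and 887 TPM in replicate 2, 990 ± 146 TPM (SD, n = 2 technical libraries). This is 0.109% and 0.0887% of all TPM. Without Dcn the sums were 651 and 669 TPM, with Bgn and Sparc higher in replicate 1 and Gsn and Vim higher in replicate 2. By mean TPM the order was Dcn, Gsn, Mgp, Sparc, Bgn, Vim, Fn1, Lum, Eln and Pdgfra. In 4 of the 9 neighbour pairs of this order the ranges of the libraries overlapped: Dcn with Gsn, Sparc with Bgn, Bgn with Vim, and Eln with Pdgfra. Lum and Eln were close to overlapping, at a lowest Lum level of 11.9 TPM against a highest Eln level of 11.7 TPM. TPM was higher in replicate 1 for 6 members and higher in replicate 2 for 4.

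**Figure D1:**
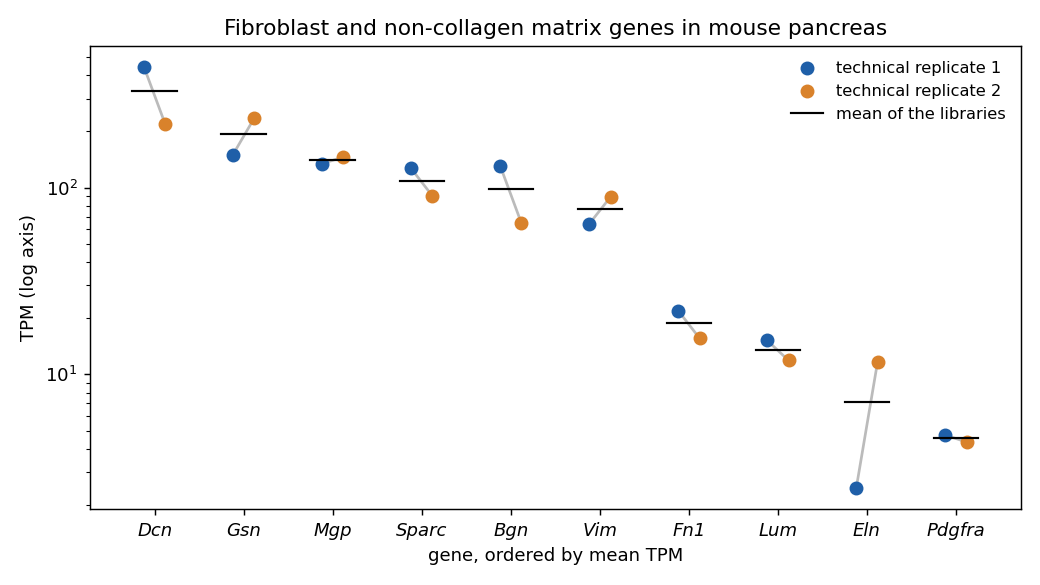
Deposited TPM of the 10 members on a log axis, with 1 point for each technical library and a bar at the mean of the libraries. Dcn spans 218 to 442 TPM and Eln 2.46 to 11.7 TPM, while the points of Mgp and of Pdgfra nearly coincide.

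Among the proteoglycans, Dcn (decorin, chr10:97479609-97518143, plus strand) binds collagen fibrils and limits their growth. It reached 442 TPM (6482 counts) in replicate 1 and 218 TPM (2771 counts) in replicate 2, 330 ± 159 TPM (SD, n = 2), and ranked 66 and 130 among 21474 protein-coding genes. It was the first of the members in replicate 1 and the second, behind Gsn, in replicate 2. Bgn (biglycan, chrX:73483602-73495933, plus strand), a close relative of decorin, held 131 TPM (2326 counts) and 64.4 TPM (799 counts), 97.8 ± 47.3 TPM (SD, n = 2). Dcn exceeded Bgn by a factor of 3.37 and 3.38 in TPM over all transcripts, and by 3.84 and 5.08 over protein-coding transcripts alone, an alternative chosen after seeing the data. Lum (lumican, chr10:97565128-97572703, plus strand), which carries keratan sulfate in some tissues and spaces collagen fibrils, lay far lower at 15.2 TPM (254 counts) and 11.9 TPM (172 counts), 13.5 ± 2.35 TPM (SD, n = 2). The ratio of Dcn to Lum in TPM was 29.1 in replicate 1 and 18.3 in replicate 2.

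Dcn and Lum lie in 1 cluster of proteoglycan genes on chromosome 10, with 46984 bases between their annotated ends. Beyond Lum come Kera, the keratocan gene of the cornea, after 34175 bases, and Epyc, epiphycan of cartilage, after another 30375 bases. Kera had 0 counts in both libraries, which allows up to 0.318 and 0.306 CPM (3 counts of each total, scaled as TPM is but without the length, counting error only), and Epyc had 0 and 1 count. Within the cluster, counts were therefore held by Dcn and Lum, and the Dcn level was over an order of magnitude above that of Lum in both libraries.

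Of the glycoproteins, Mgp (matrix Gla protein, chr6:136872435-136875823, minus strand) inhibits calcification of soft tissue once it is carboxylated with vitamin K. It was at 134 TPM (511 counts) and 146 TPM (489 counts), 140 ± 8.17 TPM (SD, n = 2), on a short mRNA, so a high level per length rests on few counts. Sparc (osteonectin, chr11:55394500-55423183, minus strand), a secreted protein that binds calcium and collagen, was at 127 TPM (2186 counts) and 90.2 TPM (1370 counts), 108 ± 25.8 TPM (SD, n = 2). Fn1 (fibronectin, chr1:71585520-71653200, minus strand) was at 22.0 TPM (1071 counts) and 15.6 TPM (615 counts), 18.8 ± 4.48 TPM (SD, n = 2). Fn1 thus had more counts than Mgp in both libraries and a lower level per length in both.

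Eln (elastin, chr5:134702593-134747323, minus strand) held 2.46 TPM (52 counts) in replicate 1 and 11.7 TPM (214 counts) in replicate 2, 7.07 ± 6.53 TPM (SD, n = 2). Its rank among protein-coding genes was 7882 in replicate 1 and 1836 in replicate 2, and its SD was nearly as large as its mean. Sparc exceeded Eln 51.5 times in TPM in replicate 1 and 7.72 times in replicate 2. The Eln transcript of the deposited tables is 2583 bases long, which equals the coding length, stop codon included, of the 3853-base transcript of the same identifier in GENCODE M21. Its counts are therefore counts over the coding sequence.

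Of the cytoskeletal members, Gsn (gelsolin, chr2:35256380-35307892, plus strand), which severs and caps actin filaments, was at 150 TPM (3272 counts) and 236 TPM (4448 counts), 193 ± 60.7 TPM (SD, n = 2). Vim (vimentin, chr2:13573927-13582826, plus strand), the intermediate filament protein of mesenchymal cells, was at 63.8 TPM (1133 counts) and 89.1 TPM (850 counts), 76.5 ± 17.9 TPM (SD, n = 2). The TPM of Vim was thus higher in the library with fewer Vim counts. Pdgfra (the alpha receptor for platelet-derived growth factor, chr5:75152292-75198215, plus strand), a surface marker of fibroblasts in many organs, was at 4.74 TPM (265 counts) and 4.34 TPM (209 counts), 4.54 ± 0.283 TPM (SD, n = 2). Of 6 genes that GENCODE M21 places over members, 2 were listed in the deposited tables, both with 0 counts in each library. The deposited posterior SD of the gene count was 0 for every member, so sharing of reads with other genes did not widen these counts.

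The libraries differ in what else they hold. Genes of the mitochondrial genome took 17.6% of counts in replicate 1 and 3.17% in replicate 2, and the noncoding gene Gm42418 took 16.9% and 42.8%. Counts were therefore compared after TMM scaling, which sets the libraries level over most genes, with an exact binomial test for each of 12452 genes whose mean count reached 10. A call needed a Benjamini-Hochberg adjusted p under 0.05 together with a log2 ratio of 1 or more in either direction. The p-values measure only counting error between these technical libraries, treat every read as a molecule of its own although PCR copies are not, and compare libraries and not conditions. In bulk tissue, fewer cells of a type and less RNA per cell cannot be told apart.

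Of the 10 members, 1 was called higher in replicate 2 (Eln) and 1 lower (Bgn), against 12.3% of all tested genes called in either direction, 8.31% higher and 4% lower. A count of 2 in 10 is not a result about the members against that background. The log2 ratio was above 0 for 5 members and below 0 for 5, with a median of -0.01, which is also the median over all tested genes. The median size of the log2 ratio was 0.37 for the members and 0.42 for all tested genes. With scaling by library totals, all genes shifted by -0.54 in log2, 8 of the members lay below 0, and 23.7% of tested genes were called, 2.75% higher and 20.9% lower. Under that scaling Dcn was called as well as Bgn and Eln.

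Eln, at 52 and 214 counts, was 5.71-fold higher in replicate 2 after TMM scaling, a log2 ratio of 2.51 (95% exact interval 2.08 to 2.99, adjusted p = 3.36e-36 in the exact binomial test). Of all tested genes 0.683% had a higher ratio. Bgn, at 2326 and 799 counts, was 2.08-fold lower, a log2 ratio of -1.06 (-1.18 to -0.94, adjusted p = 6.14e-77 in the exact binomial test), so its interval crosses the size threshold. Of all tested genes 4.40% had a lower ratio. With an assumed spread beyond counting error (dispersion 0.1 in edgeR's exact test) neither was called, and the adjusted p of Eln in that test was 0.111.

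Dcn and Gsn differed in opposite directions and were not called, Gsn just short of the size threshold. The log2 ratio of Dcn was -0.74 (95% exact interval -0.81 to -0.68, adjusted p = 1.13e-118 in the exact binomial test) and that of Gsn was 0.93 (0.86 to 0.99, adjusted p = 4.33e-171 in the same exact test). The ratio of Dcn to Gsn in TPM went from 2.94 in replicate 1 to 0.922 in replicate 2, which is where the order of the 2 highest members turned. Mgp had a log2 ratio of 0.42 (0.24 to 0.60), Sparc of -0.19 (-0.29 to -0.09) and Fn1 of -0.32 (-0.46 to -0.17), each with an interval that leaves out 0 and each below the size threshold. For Lum at -0.08 (-0.37 to 0.21), Vim at 0.07 (-0.06 to 0.20) and Pdgfra at 0.14 (-0.13 to 0.41) the interval held 0. Under library totals the ratios of Mgp (-0.12), Vim (-0.47) and Pdgfra (-0.40) turned below 0.

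The ratio between the libraries moved with base composition over all genes. Over 12309 tested nuclear genes, Pearson's r between the log2 ratio and the G and C content of the leading transcript was 0.44 and Spearman's rho 0.465, across genes that share both libraries and are not independent. Over the 10 members r was 0.632 and rho 0.479, a small set with no interval computed and with Eln at the top of both scales. Of the 4 windows printed above, those of Lum and Dcn are the poorest in G and C and their genes had ratios of -0.08 and -0.74, while Eln, the richest member, had the highest ratio. Bgn went against this order, with 52.5% G and C in its transcript and the lowest ratio of the members. Lum, with the least G and C in its transcript at 41.9%, had a higher ratio than Dcn, Fn1, Sparc and Bgn. Pdgfra, at 47.1%, had a ratio of 0.14, above that of Sparc (-0.19 at 51.7%).

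When a smooth trend on G and C content and transcript length was taken off, 7.89% of 12324 genes were called, 4.08% higher and 3.81% lower, and among the members still Eln and Bgn. The Eln ratio was then 1.86 and the Bgn ratio -1.14, as the trend stood at 0.66 for Eln and at 0.08 for Bgn. The ratios of Dcn and Gsn came to -0.47 and 0.47, Pdgfra to 0.40, Mgp and Sparc to 0.25 and -0.25, and Fn1 to -0.21. Lum turned to 0.22 and Vim to -0.09. The part of base composition in these ratios was not tested beyond this trend.

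**Figure D2:**
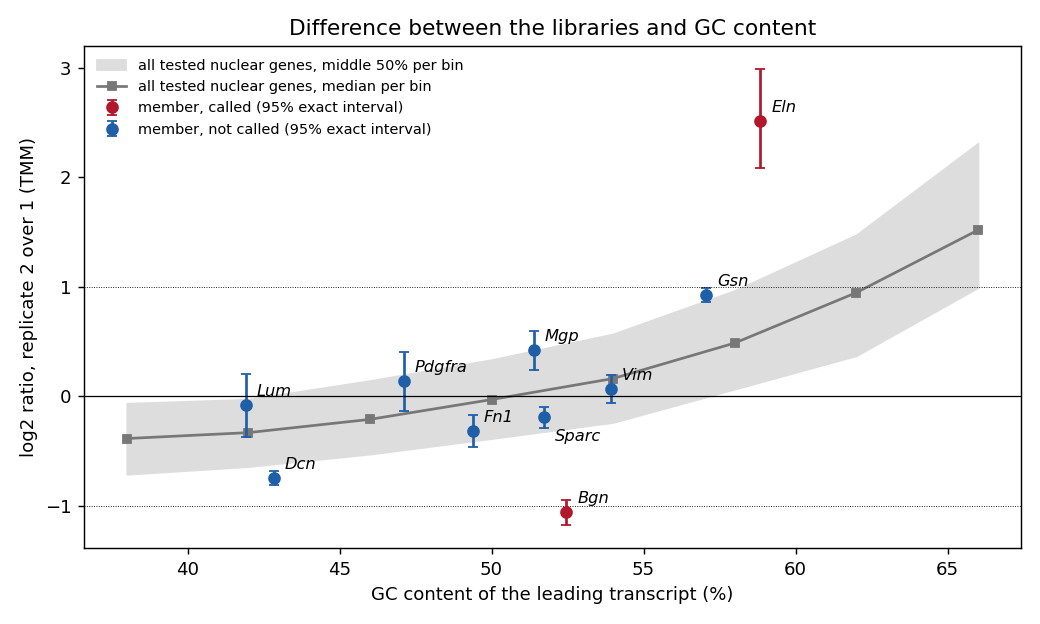
Log2 ratio of replicate 2 to replicate 1 after TMM scaling against the percent of G and C in the leading transcript, with a grey line and band for the median and middle 50% of all tested nuclear genes in bins of G and C content, and labelled points for the 10 members with exact 95% intervals. Eln at 2.51 and, narrowly, Mgp at 0.42 lie above the middle 50% of genes of like composition, and Bgn at -1.06 and Dcn at -0.74 lie below it. Gsn at 0.93 is under the upper quartile of its bin, 0.97 from 56% to 60%. The band is drawn between bin centres, and its upper edge passes just below the Gsn point.

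The transcript tables divide the members further. Of the 10, 4 had counts on 1 transcript: Lum, Mgp, Eln and Gsn. Lum, Mgp and Eln have a single transcript in the deposited annotation. The secreted and cytoplasmic forms of Gsn come from different first exons. Out of 4 annotated transcripts of Gsn, Gsn-201 took 100% of TPM in both libraries. Gsn-201 has a coding length of 2343 bases, stop codon included, and which form it encodes was not assigned here. The share of the leading transcript was tested with Fisher's exact test on the rounded counts and called where the adjusted p was under 0.05 and the shares differed by at least 10 percentage points. It was called for 5 of 7 members with more than 1 annotated transcript, against 45.5% of the 3682 genes tested in the same way. Bgn lost its call when shares were taken of expected counts, and Fn1 when they were taken of the deposited posterior mean TPM, which left 4 in each case. These counts are estimates divided among overlapping transcripts, so this exact test leaves out the error of that division.

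Of the members, Vim had the widest gap between the libraries. Its full-length transcript Vim-201 held 99.8% of Vim TPM in replicate 1 (1130 counts) and 42.3% in replicate 2 (579 counts). Vim-203, a 535-base transcript of the 3′ part of the gene that is annotated as a retained intron, held 0 and 111 counts, which came to 0% and 43.3% of TPM because of its shortness. Vim-206, a shorter coding transcript, held 0 and 155 counts and 0% and 14.2% of TPM. The adjusted p of the Vim-201 share in Fisher's exact test was 5.80e-105. With protein-coding transcripts alone Vim was at 63.7 TPM in replicate 1 and 50.3 TPM in replicate 2, so the order of the libraries turned. The mean effective length of Vim in the tables was 2032 bases in replicate 1 and 1266 bases in replicate 2.

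In Bgn the shift depended on the unit. Bgn-201, the coding transcript, held 87.8% of TPM in replicate 1 and 66.5% in replicate 2, and Bgn-208, a 548-base transcript without a coding sequence, held 12.2% and 32.5% on 53.7 and 62.3 counts (adjusted p of the Bgn-201 share 1.16e-11, Fisher's exact test). Of expected counts Bgn-201 held 97.7% and 91.6%, less than 10 percentage points apart and not called. With protein-coding transcripts alone, Bgn was at 115 TPM and 42.9 TPM, a log2 difference of -1.43. In Sparc the transcript Sparc-202 held 80.4% and 67.8% of TPM (adjusted p = 7.18e-18, Fisher's exact test), with most of the rest on the coding transcript Sparc-201. In Pdgfra the division was weakly fixed by the reads: Pdgfra-202 held 64.8 counts with a deposited posterior SD of 54.9 in replicate 1 and 0 counts with a posterior SD of 32.9 in replicate 2. The Dcn transcripts, which differ in their first exon, each held close to an even part, 49.7% and 52.2% for Dcn-201 (adjusted p = 0.0577 in Fisher's exact test, a difference below the size threshold).

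**Figure D3:**
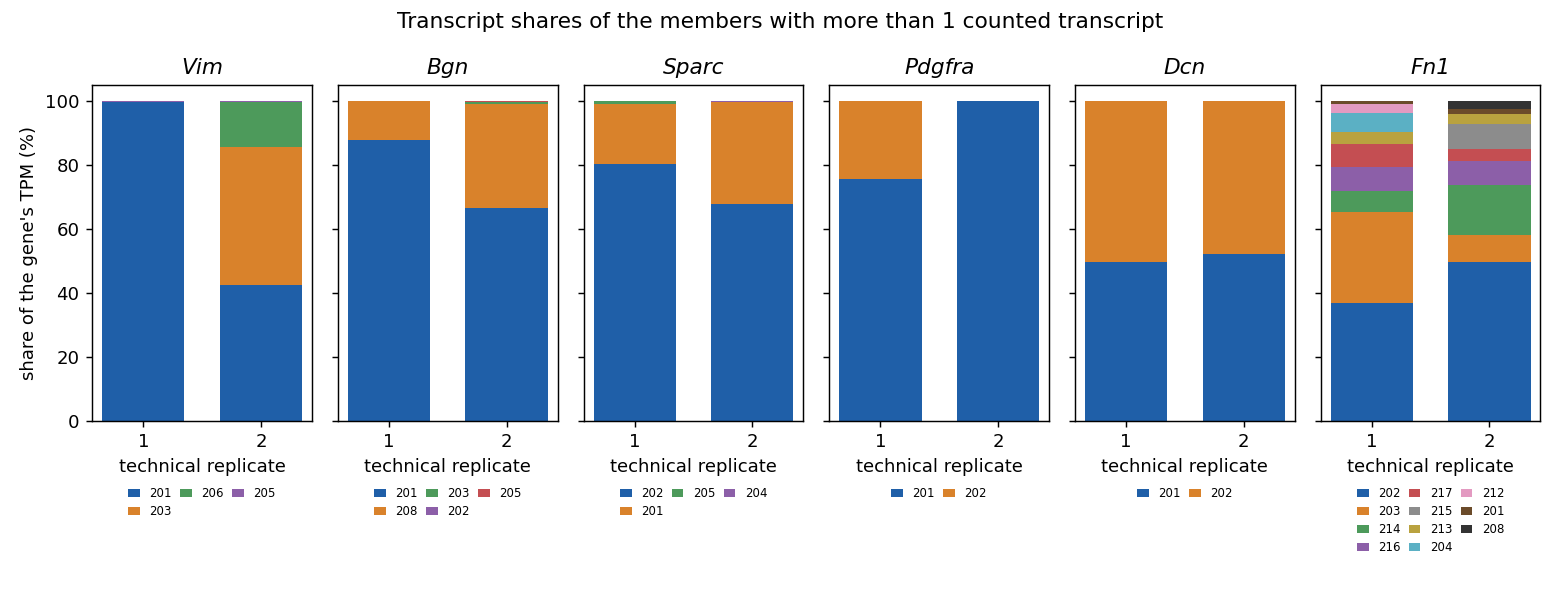
Percent of each member's TPM on its transcripts, as stacked bars from 0 to 100% for replicate 1 and replicate 2, for the 6 members with more than 1 counted transcript (201 stands for Vim-201 in the panel of Vim, and so on). Vim-201 drops from 99.8% to 42.3% and Bgn-201 from 87.8% to 66.5%, while Dcn stays near an even division.

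Fn1 is the member with the most transcripts, 17 in the deposited annotation and 11 with counts. The leading one by TPM was Fn1-202, a 4022-base transcript annotated as a retained intron that covers the 3′ part of the gene, at 36.9% of Fn1 TPM in replicate 1 and 49.6% in replicate 2 (adjusted p = 6.50e-06, Fisher's exact test). The 7 full-length coding transcripts summed to 11.9 TPM and 6.26 TPM. Among them the leading form in replicate 1 was Fn1-203, at 415 counts (posterior SD 69.0), against 75.3 counts (posterior SD 38.1) in replicate 2. By posterior mean TPM the share of Fn1-202 was 32.5% and 40.8%, a difference of 8.35 percentage points and no call.

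The cassette exons printed above set these transcripts apart. EDB is in 1 of the 7 full-length transcripts, and that transcript took 1.85% of their TPM in replicate 1 and 4.31% in replicate 2. It held 15.6 counts (posterior SD 18.45) and 16.8 counts (posterior SD 16.95). By posterior mean TPM the EDB share was 3.16% and 7.17%. EDA is in 4 of the 7, and these took 20.3% and 51.0%. With Fn1-202, whose exons lie on both sides of EDA and leave it out, counted as well, the EDA share was 12.1% and 22.8%. On the minus strand the variable exon ends at position 71597281 of chromosome 1 and has 3 alternative starts, which give 3 lengths. Its 467-base form was at 65.9% and 64.5%, its 107-base form at 20.8% and 26.4% and its 392-base form at 13.3% and 9.11%. The EDB share was thus low in both libraries, on counts below their posterior SD. The long form of the variable exon led in both, while the EDA share differed by 30.7 percentage points on full-length transcripts and 10.7 with Fn1-202. No reads over these exons were counted here, so the shares are those of the authors' transcript estimates.

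The related genes give the members' surroundings. Of 13 other small leucine-rich proteoglycan genes, 8 could be tested, of which 0 were called higher and 1 lower, and their median log2 ratio was -0.74 against -0.01 over all tested genes. Their summed level was 83.7 TPM in replicate 1 and 44.4 TPM in replicate 2. Ogn (osteoglycin) was at 31.0 and 14.6 TPM, Prelp, a proteoglycan near basement membranes, at 21.3 and 10.7 TPM, and Fmod (fibromodulin) at 11.1 and 6.67 TPM, with log2 ratios of -0.81, -0.67 and -0.46. Omd (osteomodulin) was the 1 called, at -1.84. Podn (0.12) and Tsku (0.81) went the other way and were not called. With library totals 5 of the 8 were called lower, against 20.9% of all tested genes. After the trend on base composition and length none was, and the median was -0.39. Dcn and Bgn lay in the same range and Lum nearer to 0.

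Around elastin, 20 of 21 other elastic fibre genes were tested, 3 were called higher and 1 lower, and the median was -0.04. Those called higher were Ltbp4, which helps to lay down elastin and binds latent TGF-beta, at 1.17, the elastin-binding glycoprotein gene Emilin1 at 1.42, and the microfibril gene Mfap2 at 2.26 on 9 and 32 counts. The one called lower was another microfibril gene, Mfap4, at -1.24. After the trend, 1 gene of this list was called higher (Mfap2, 1.44) and 1 lower (Mfap4, -1.42), and Ltbp4 and Emilin1 lost their calls at 0.14 and 0.56. Efemp1 (fibulin-3) was at 82.7 and 44.5 TPM and Fbln2 (fibulin-2) at 32.0 and 32.1 TPM, so both exceeded Eln in both libraries. Scaled by library totals, 1 gene of the list was called higher (Mfap2) and 2 lower (Mfap4 and, at -1.26, Efemp1). The shares of all tested genes were then 2.75% and 20.9%.

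Of 21 other matrix glycoprotein genes, all tested, 0 were called higher and 1, Spock3, lower at -1.31, and the median was 0.01. The osteopontin gene Spp1 led them at 99.1 and 81.3 TPM, and Sparcl1, the nearest relative of Sparc, was at 62.0 and 32.7 TPM and called lower with library totals (-1.18). Of 10 fibronectin receptor genes 1 was called higher, the integrin gene Itgb5 at 1.19. Scaled by library totals, 0 of the 10 were called higher and 3 lower (Itga4, Itga8 and Itgb8), against 2.75% and 20.9% of all tested genes. The integrin gene Itgb1 was at 33.8 and 23.5 TPM, above Fn1 in both libraries, and the syndecan gene Sdc4 at 8.83 and 11.6 TPM. Of 5 genes of the platelet-derived growth factor system besides Pdgfra, 1 was called higher, the ligand gene Pdgfb at 1.01. The ligand gene Pdgfa was at 16.6 and 10.7 TPM, and Pdgfrb, the other receptor, at 4.74 and 4.11 TPM, close to Pdgfra. Spock3, Itgb5 and Pdgfb lost their calls after the trend, at -0.56, 0.75 and 0.24, and Itgb5 and Pdgfb also with library totals, at 0.66 and 0.47.

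Of 9 collagen genes of the same matrix none was called in either direction, and their median was 0.02. By the exact binomial test 5 of them had an adjusted p under 0.05, against 36.2% of all tested genes. All 5 had log2 ratios within 0.52 of 0. After the trend Col6a2 was called lower, at -1.07. Col3a1, of fibrillar type III collagen, was at 53.5 and 59.5 TPM, Col1a2, of type I, at 25.9 and 24.6 TPM, and Col6a1, of microfibrillar type VI, at 22.4 and 18.5 TPM, so Dcn was above each of them in both libraries. Of 7 genes for carboxylation of Mgp and for the bone morphogenetic proteins it binds, 6 were tested and none was called. They were led by Vkorc1, the vitamin K epoxide reductase, at 37.4 and 21.1 TPM (called lower with library totals, at -1.06) and by Gas6, another carboxylated protein, at 36.9 and 46.0 TPM. None of 6 tested relatives of Gsn and none of 3 tested relatives of Vim was called. The highest of these were Flii at 19.6 and 11.9 TPM and the muscle filament gene Des at 10.4 and 5.71 TPM, both far below Gsn and Vim. Under the alternatives, Des was called lower with library totals (-1.24) and after the trend (-1.08), and the supervillin gene Svil of the gelsolin family with library totals (-1.13).

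**Figure D4:**
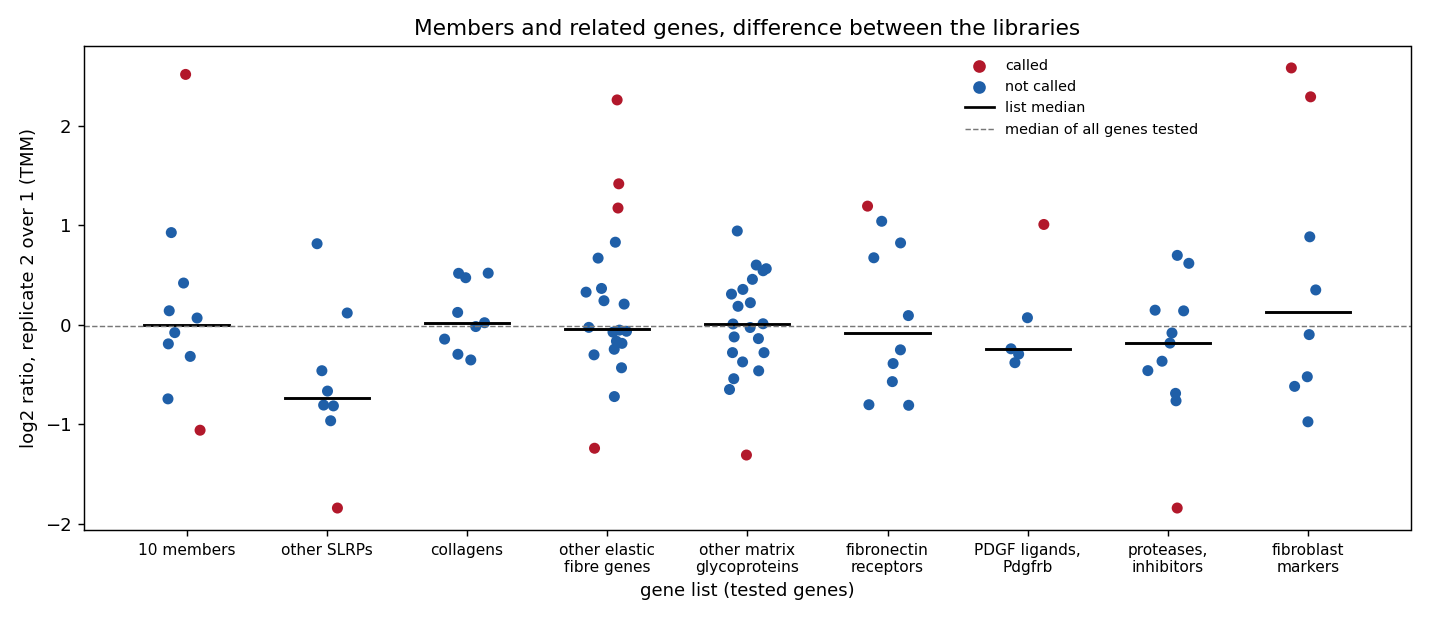
Log2 ratio of replicate 2 to replicate 1 after TMM scaling for the 10 members and the tested genes of 8 related lists, with 1 point for each gene (red where called), a black bar at the list median and a dashed line at the median of all tested genes (-0.01). The other small leucine-rich proteoglycans have a median of -0.74 and the collagens one of 0.02.

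Markers of the cells that could hold these mRNAs were present in both libraries. Of 8 fibroblast markers 7 reached 1 TPM in both, with Tcf21, a transcription factor of fibroblast precursors, at 0.540 and 2.85 TPM, and the list summed to 124 and 118 TPM. Dpt (dermatopontin) led it at 46.0 and 35.4 TPM. Clec3b (tetranectin), at 9.41 and 37.9 TPM, and Tcf21 were called higher, with log2 ratios of 2.29 and 2.58, and the list median was 0.13. In the same list Dpp4 (-0.97), Serpinf1 (-0.62) and Thy1 (-0.52) had ratios below 0 and were called lower with library totals, so its genes went both ways. All 5 smooth muscle markers were at 1 TPM or more in both libraries, with sums of 169 and 116 TPM, and none was called. With library totals 3 of these 5 were called lower, against 20.9% of all tested genes. Of 7 stellate cell and pericyte markers 5 reached 1 TPM in both, with sums of 68.6 and 38.5 TPM led by Rgs5, a regulator of G protein signalling, at 46.4 and 21.9 TPM and a log2 ratio of -0.81. Cspg4 (1.08) and Kcnj8 (1.39) of that list were called higher, both calls lost with library totals, and that of Cspg4 after the trend. Under library totals 3 of the 7 were called lower, Rgs5 among them at -1.34, against the same 20.9% of all tested genes. Endothelial markers summed to 339 and 270.5 TPM, with Tie1 called higher (1.04) and Emcn lower (-1.02), neither of them after the trend. With library totals 4 of the 7 endothelial markers were called lower, against the same 20.9% of all tested genes. Macrophage markers summed to 144 and 140 TPM and mesothelial markers to 65.7 and 62.2 TPM. Adipocyte markers summed to 338 and 247 TPM, of which Fabp4 held 254 and 146 TPM and Adipoq 17.5 and 14.2 TPM. Only 1 of 4 Schwann cell markers reached 1 TPM in both libraries, and the list summed to 5.94 and 3.73 TPM. None of the 3 tested was called, and 1 was called lower with library totals, against the same 20.9% of all tested genes. Acinar markers summed to 75740 and 88340 TPM. The part of each cell type in the level of a member was not tested.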

How the data were processed

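Polyadenylated RNA of 1 mouse pancreas was measured in 2 technical libraries. The names of the aligner and quantifier were not given in the sources used here. Build mm10 and GENCODE M4 are named in the deposited README files. Per the file headers, the deposited tables give an expected count, an estimate that need not be whole, for each gene and transcript, with its effective length. The deposited TPM and FPKM correct that count for length, and FPKM was not used for levels. The isoform percent of the deposited transcript tables was recomputed from TPM. The deposited posterior mean TPM, entered as a signal, and the deposited posterior SD of counts, entered as a score, were used as an alternative and as the error of isoform counts.

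Symbols, positions and sequences came from GENCODE M21 on GRCm38, and 42462 of 43346 gene identifiers matched. The 97 spike-in rows and 26248 numbered rows hold no counts and were left out. Rounded counts were scaled by edgeR's TMM method (version 4.0.16, R 4.3.3) and tested by a two-sided exact binomial test, with Benjamini-Hochberg adjustment over 12452 genes and 0.5 added to both counts for log2 ratios. Intervals are exact Clopper-Pearson intervals at 95%. With 1 biological sample, edgeR's quasi-likelihood test has no replicates to use. The trend on G and C content and length was fitted with mgcv 1.9.3, leaving out genes of the mitochondrial genome. Nuclear copies of mitochondrial genes (BLAST+ 2.17.0, identity of 95% across 90% of the length) were left out only of the rescaled TPM. DESeq2 1.42.0 size factors were an alternative. Tables were handled in Python 3.11.15. The tests were tried on simulated data.

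All 10 members are described in full. From the lists of related genes those named are the genes called and some of the 3 with the highest mean TPM. Kera and Epyc are named for their position, Pdgfrb as the other receptor, and other genes beyond this rule were named after their values were seen. Calls in marker lists of exocrine, islet and lymphoid cells are not described. The members and lists were chosen with earlier results of these data known.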

Additional observations from a re-analysis of the deposited data

How the results depend on the processing

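The number of all tested genes called between the libraries, 1533 (1035 higher and 498 lower in replicate 2), depended on the scaling and the filter. It was 2945 with library totals (342 and 2603), 649 with a minimum mean of 50 counts (443 and 206) and 972 after the trend on base composition and length (503 higher). With an assumed dispersion of 0.1 it was 45 (31 and 14), and with 5 added to both counts 328 were lower. Of the members, 2 were called, and 0 at a dispersion of 0.1. Directions turned for Lum after the trend (0.22), for Vim after the trend (-0.087) and with library totals (-0.47), and with library totals for Mgp (-0.12) and Pdgfra (-0.40). Summed member TPM was 990, ran from 887 to 1093 as a library was left out, and was 1816 when TPM was rescaled without mitochondrial genes, their copies and Gm42418, Gm26917 and Lars2. Depth limits Eln in replicate 1 most, at 52 counts. No paired analysis was possible because both libraries belong to 1 group and the result compares 1 library with the other.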

Other observations

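Matrix proteases and their inhibitors were tested for all 11 genes listed, of which 0 were called higher and 1 lower in replicate 2 by the exact binomial test, with a median log2 ratio of -0.18. The inhibitor genes Timp2, at 58.3 and 35.1 TPM, and Timp3, at 57.5 and 28.0 TPM, led the list, above the gelatinase gene Mmp2 at 9.40 and 8.56 TPM in both libraries. Timp1, whose product inhibits many matrix metalloproteinases, was the 1 called lower, at -1.84 on 22 and 4 counts. Scaled by library totals, 3 of the 11 were called lower, Timp3 among them at -1.30, against 20.9% of all tested genes.

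Of 5 mesothelial markers all reached 1 TPM in both libraries, and Msln (mesothelin) was called higher at 1.18, a call lost with library totals (0.65) and after the trend (0.87). The uroplakin gene Upk3b was at 30.6 and 31.0 TPM. Among 6 adipocyte markers none was called, and the fatty acid binding protein gene Fabp4 was at 254 and 146 TPM, above Gsn in replicate 1 and below both Dcn and Gsn in replicate 2. Scaled by library totals, 2 of the 6 were called lower, Fabp4 among them at -1.07, against 20.9% of all tested genes.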
